A study of Mus musculus with 6 samples.

Results

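Mast cell genes are described here in the infarcted mouse heart. The members were 8 genes chosen by symbol, and the rows of the deposited table were found by matching their Ensembl identifiers, without version, to GENCODE M21. All 8 were found among the 52550 rows. They fall into the granule protease genes Cma1, Mcpt4, Tpsb2 and Cpa3, the receptor genes Kit, Fcer1a and Ms4a2, and Hdc, the gene of the histamine-making enzyme.

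RNA was taken from hearts of C57BL/6 mice and sequenced as mRNA profiles with a TruSeq RNA kit. All 6 mice had the left anterior descending coronary artery tied off permanently at 8 weeks of age and were 10 weeks old, 2 weeks after the infarction, when the hearts were collected. The groups were 3 wild-type mice (WT) and 3 mice of the genotype lncRNA-DRR-/- (KO). The labels do not say how the lncRNA was deleted, which part of the heart was taken, or whether mice were littermates. The labels describe a sham operation, but no sham-operated heart was analysed here, so every value below is from an infarcted heart.

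Mast cells are tissue-resident leucocytes that store ready-made mediators in granules. The granules hold histamine and proteases bound to the proteoglycan serglycin: chymases, tryptases and carboxypeptidase A. Cross-linking of the high-affinity IgE receptor, or other stimuli, empties them within minutes, and survival of the cells depends on the receptor tyrosine kinase KIT and its ligand, stem cell factor. In the heart, mast cells lie around vessels and in the epicardium, and chymase is known as an enzyme that can make angiotensin II outside the renin pathway.

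The libraries held about 5189000 to 9398000 fragments, estimated from the FPKM that 1 fragment was worth, and between 14299 and 14869 genes reached an FPKM of 0.5 in a library. FPKM is the number of fragments scaled to transcript length and to the size of the library, so levels of different genes can be set side by side. KO replicate 3 stood apart in sex-linked genes. Xist, the RNA of the inactive X chromosome, reached 25.6 FPKM in it and at most 0.0742 FPKM in the other 5 libraries, and the Y-linked gene Ddx3y reached 0.0280 FPKM in it and at least 13.0 FPKM in the others. The log2 differences of the 6 tested members are also given without this library. Ratios, shares, sums over lists and the values of most other genes are given only with it.

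Promoters are shown for the 7 of the 8 members that RefSeq promoters were matched for, whatever their level, so that the windows of all of them can be set side by side. Each line gives the 250 bases before the transcription start in RefSeq (GRCm38.p6), 5′ to 3′ on the strand of the gene. Capitals mark the letters AGATAA with its forms AGATAG and also TGATAA and lastly TGATAG, on either strand, the short sequence that GATA factors bind, and in Fcer1a also the letters CACATG. The windows are chr14:55944676-55944925 (minus strand) for Cma1, chr14:56062311-56062560 (minus strand) for Mcpt4, chr3:20242182-20242431 (minus strand) for Cpa3, chr5:75574737-75574986 (plus strand) for Kit, chr1:173227230-173227479 (minus strand) for Fcer1a, chr19:11623720-11623969 (minus strand) for Ms4a2 and chr2:126618679-126618928 (minus strand) for Hdc.
Cma1: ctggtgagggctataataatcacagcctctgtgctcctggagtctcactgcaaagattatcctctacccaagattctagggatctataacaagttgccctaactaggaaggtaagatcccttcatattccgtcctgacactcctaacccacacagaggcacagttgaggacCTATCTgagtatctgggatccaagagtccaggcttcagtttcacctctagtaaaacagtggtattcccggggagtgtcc
Mcpt4: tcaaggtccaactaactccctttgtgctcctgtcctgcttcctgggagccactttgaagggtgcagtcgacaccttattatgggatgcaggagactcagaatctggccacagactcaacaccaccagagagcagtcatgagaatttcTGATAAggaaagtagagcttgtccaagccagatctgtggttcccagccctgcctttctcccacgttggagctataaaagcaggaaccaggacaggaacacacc
Cpa3: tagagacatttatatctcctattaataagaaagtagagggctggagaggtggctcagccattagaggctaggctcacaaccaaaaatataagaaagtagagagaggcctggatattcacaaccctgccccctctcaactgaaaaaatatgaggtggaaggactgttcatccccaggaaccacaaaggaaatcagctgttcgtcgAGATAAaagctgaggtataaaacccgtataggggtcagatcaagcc
Kit: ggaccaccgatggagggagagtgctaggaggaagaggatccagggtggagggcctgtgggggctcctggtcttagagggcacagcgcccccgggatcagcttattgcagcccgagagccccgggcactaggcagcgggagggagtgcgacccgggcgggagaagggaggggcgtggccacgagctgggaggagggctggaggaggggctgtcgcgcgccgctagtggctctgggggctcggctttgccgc
Fcer1a: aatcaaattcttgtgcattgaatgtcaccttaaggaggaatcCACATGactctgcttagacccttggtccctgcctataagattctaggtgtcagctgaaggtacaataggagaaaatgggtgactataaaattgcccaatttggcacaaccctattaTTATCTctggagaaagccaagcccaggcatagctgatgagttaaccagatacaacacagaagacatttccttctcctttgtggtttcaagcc
Ms4a2: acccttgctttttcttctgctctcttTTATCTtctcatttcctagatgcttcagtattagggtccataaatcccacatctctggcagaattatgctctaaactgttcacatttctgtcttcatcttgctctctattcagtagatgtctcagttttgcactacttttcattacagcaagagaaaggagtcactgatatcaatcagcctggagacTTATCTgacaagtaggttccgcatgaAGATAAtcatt
Hdc: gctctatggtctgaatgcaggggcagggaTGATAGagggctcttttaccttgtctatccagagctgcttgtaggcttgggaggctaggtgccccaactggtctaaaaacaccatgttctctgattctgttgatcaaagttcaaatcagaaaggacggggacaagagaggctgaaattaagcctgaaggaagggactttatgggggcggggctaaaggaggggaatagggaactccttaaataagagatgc

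The letters for GATA factors were in the windows of 6 of these 7 members and not in that of Kit. They began 79 bases before the start in Cma1, 103 in Mcpt4, 46 in Cpa3, 92 in Fcer1a and 221 in Hdc, and in Ms4a2 they occurred at 224, 37 and 11 bases. The windows that hold them thus belong to Cma1, Mcpt4 and Cpa3, protease genes with lower mean levels in KO hearts. They also belong to Hdc, whose estimated difference was smaller, and to the IgE receptor genes, which were close to 0. Tpsb2, the remaining protease gene, had no matched promoter and is not covered. GATA2 is a transcription factor that mast cells need. Of all 32851 promoter windows of the same length, 26.5% held these letters on either strand. The letters CACATG or CACGTG, on either strand, which the mast cell factor MITF can bind, were in the window of Fcer1a, 208 bases before the start, in none of the other 6 windows and in 17.6% of all windows. A match is a description of the letters only.

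The 4 granule protease genes had lower mean levels in KO than in WT infarcted hearts, and none of these differences passed the test over all genes. The mean level of Cma1 was 3.31 times as high in WT as in KO hearts, that of Cpa3 2.40 times, that of Tpsb2 2.12 times and that of Mcpt4 1.67 times. Kit did not share a fall of this size. The estimate for Hdc was smaller, but a fall as large as that of Mcpt4 was not excluded. The limma interval of its log2 difference (KO minus WT), -0.74 to 0.21, held the Mcpt4 estimate of -0.66. The IgE receptor genes Fcer1a and Ms4a2 were close to 0 throughout. Of the 8 members 6 passed the filter on low values (an FPKM of 0.5 in at least 3 libraries), and 0 of these 6 passed an adjusted p of 0.05 in limma. The share called among all 14656 genes tested was 0.375%. At an unadjusted limma p under 0.05 there were 4 members, the 4 protease genes, against 8.48% of all tested genes in either direction and 4.68% with KO lower. In RNA of heart tissue, fewer mast cells and less of these RNAs per mast cell cannot be told apart. The labels do not say which part of the heart was taken.

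**Figure D1:**
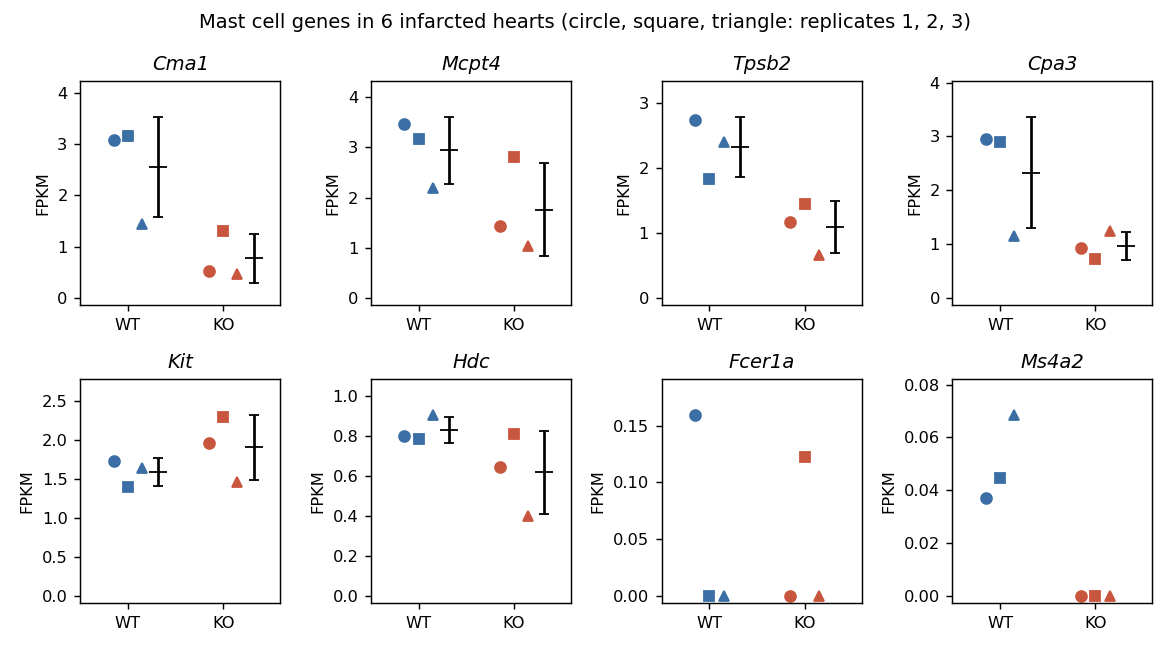
FPKM of each of the 8 genes (vertical axis, a separate linear scale from 0 for each gene) in the 3 WT and 3 KO libraries. Points are libraries, with bars for the mean and SD of 3, left out for Fcer1a and Ms4a2, which are listed at 0 in 4 and 3 libraries. WT and KO points do not overlap for Cma1, Tpsb2 and Ms4a2.

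Cma1 encodes a mast cell chymase, a protease of the granule (chr14:55941451-55944675, minus strand, GRCm38). WT replicates 1 to 3 held it at 3.07, 3.16 and 1.43 FPKM, and KO replicates 1 to 3 at 0.529, 1.31 and 0.472 FPKM. The 2 genotypes did not overlap, but WT replicate 3 and KO replicate 2 lay close together. The WT mean was 2.55 ± 0.97 FPKM and the KO mean 0.771 ± 0.469 FPKM (SD, n = 3 each). On the scale of log2(FPKM / scaling factor + 0.5), on which all log2 differences are given as KO minus WT with their SE, the difference was -1.26 ± 0.31 (95% interval -1.98 to -0.54, limma adjusted p = 0.237). These levels rest on few fragments, about 31 to 8 in the WT and about 12 to 4 in the KO libraries.

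Mcpt4 encodes the other chymase detected here, a protease of connective tissue mast cells in mice (chr14:56059629-56062313, minus strand). Its level was 3.46, 3.16 and 2.19 FPKM (WT) against 1.44, 2.80 and 1.03 FPKM (KO), library by library. KO replicate 2 lay within the WT range, so the genotypes overlapped. The log2 difference was -0.66 ± 0.27 (95% interval -1.29 to -0.03, limma adjusted p = 0.558). Without KO replicate 3, the library that stands apart in sex-linked genes, it was -0.43 (limma unadjusted p = 0.130).

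Tpsb2 encodes a tryptase, the trypsin-like protease of the granule (chr17:25366305-25369098, plus strand). It stood at 2.74, 1.83 and 2.40 FPKM across WT against 1.18, 1.45 and 0.664 FPKM across KO libraries, with no overlap. The means were 2.32 ± 0.46 and 1.10 ± 0.40 FPKM (SD, n = 3 each), and the log2 difference was -0.83 ± 0.22 (95% interval -1.35 to -0.32, limma adjusted p = 0.287). Cma1 and Tpsb2 were the 2 tested members whose genotypes did not overlap. Over all tested genes 12.8% did not overlap, and 7.5% did so with the KO libraries lower.

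Cpa3 encodes mast cell carboxypeptidase A, which trims peptides from their carboxyl end (chr3:20215620-20242181, minus strand). Its level was 2.95, 2.90 and 1.14 FPKM (WT) against 0.937, 0.726 and 1.25 FPKM (KO), library by library. WT replicates 1 and 2 lay well above the other 4 libraries, while WT replicate 3 lay among the KO libraries. The log2 difference was -0.87 ± 0.30 (95% interval -1.57 to -0.16, limma adjusted p = 0.465). Without WT replicate 3 it was -1.19 (limma unadjusted p = 0.0013, adjusted p = 0.186), and without KO replicate 2 it was -0.71 (limma unadjusted p = 0.075).

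**Figure D2:**
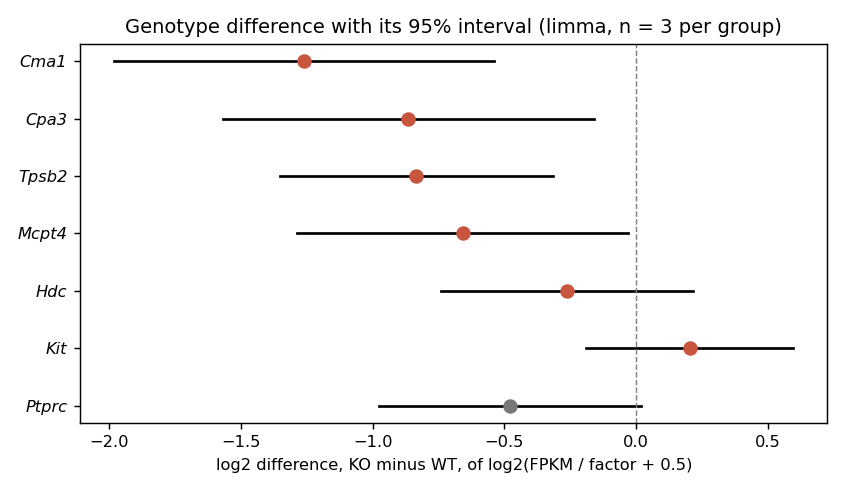
Log2 difference, KO minus WT (horizontal axis, log2 scale), with the 95% interval from limma, for the 6 tested members and, in grey, Ptprc. The intervals of the 4 protease genes lie below 0, those of Hdc, Kit and Ptprc hold 0, and none of the plotted genes passed the adjustment over all genes.

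Kit encodes the receptor for stem cell factor (chr5:75574916-75656722, plus strand). It did not follow the protease genes. Its level was 1.73, 1.39 and 1.64 FPKM (WT) against 1.96, 2.29 and 1.46 FPKM (KO), library by library, and the genotypes overlapped. The log2 difference was 0.20 ± 0.17 (95% interval -0.19 to 0.60, limma adjusted p = 0.824), an interval that leaves out a fall as large as the estimate for any of the 4 protease genes. Without KO replicate 3 the difference was 0.33 (limma adjusted p = 0.582), and without KO replicate 2 it was 0.13 (limma adjusted p = 0.866). Kitl, the gene of its ligand, was at 19.4 ± 2.2 FPKM across WT and 21.5 ± 3.8 FPKM across KO hearts (SD, n = 3 each; limma adjusted p = 0.849).

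Kit is known in cells other than mast cells, melanocytes among them. The summed FPKM of 6 melanocyte markers was 1.94 to 2.40 in the WT and 2.96 to 4.55 in the KO libraries, with no overlap. Of the 6 markers 2 were tested, 1 higher and 1 lower in KO hearts, and 0 were called. Dct, which encodes a pigment enzyme, was at 0.470, 1.16 and 1.44 FPKM across WT against 1.38, 2.04 and 2.83 FPKM across KO libraries (log2 difference 0.78 ± 0.33, limma adjusted p = 0.578). Sox10, a transcription factor gene also active in glia, was at 0.737 ± 0.15 FPKM across WT and 0.612 ± 0.21 FPKM across KO hearts (SD, n = 3 each; log2 difference -0.16, limma adjusted p = 0.899). Of the untested markers, Mlana was at 0.330, 0 and 0 FPKM across WT against 0.456, 1.38 and 0.701 FPKM across KO libraries. These did not overlap, as for 12.8% of all tested genes in either direction. Means of Tyrp1 (WT 0.0296, KO 0.143 FPKM) and Pmel (WT 0.279, KO 0.309 FPKM) were also higher in KO hearts, with overlap. Tyr was listed at 0 in 5 libraries. The summed FPKM of 6 endothelial markers was 316 to 330 in WT and 290 to 370 in KO libraries. The part of these cells in the level of Kit was not tested.

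Hdc encodes histidine decarboxylase, the enzyme that makes histamine (chr2:126593667-126619299, minus strand). It stood at 0.797, 0.783 and 0.903 FPKM across WT against 0.644, 0.808 and 0.397 FPKM across KO libraries. The genotypes overlapped, since KO replicate 2 lay among the WT libraries. The log2 difference was -0.26 ± 0.20 (95% interval -0.74 to 0.21, limma adjusted p = 0.809), and without KO replicate 3 it was -0.12 (limma adjusted p = 0.877). Hdc is known in neutrophils and basophils as well as in mast cells. Of 11 neutrophil markers 9 were tested, and all 9 had a lower level in KO hearts, with a median log2 difference of -0.82. Of these, 5 had an unadjusted limma p under 0.05 and 1 was called. Over all tested genes 50.7% were lower, 4.68% were lower at an unadjusted limma p under 0.05, and 0.375% were called in either direction. The called gene was S100a8, a calprotectin subunit gene (log2 difference -1.24 ± 0.18, limma adjusted p = 0.047). This call ended when any 1 library was left out, with limma adjusted p between 0.062 and 0.192. The summed FPKM of the neutrophil markers was 60.7 to 85.3 in WT and 23.4 to 43.7 in KO libraries. S100a9 was the largest part of this sum in each library, at 33.1 to 47.9 FPKM in WT and 10.2 to 23.1 FPKM in KO. The part of neutrophils in the levels of Hdc and of the protease genes was not tested.

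Fcer1a and Ms4a2 encode the alpha and beta chains of the high-affinity IgE receptor (chr1:173221284-173227214 and chr19:11615523-11623719, both on the minus strand). Neither passed the filter on low values. Fcer1a was at 0.160 FPKM in WT replicate 1 and 0.123 FPKM in KO replicate 2 and was listed at 0 in the other 4 libraries. Ms4a2 reached 0.0370, 0.0447 and 0.0685 FPKM across WT and was listed at 0 in the 3 KO libraries. Each of these WT values corresponds to about 1 fragment, so no difference in Ms4a2 was detectable at this depth (exact permutation test, two-sided p = 0.1, the smallest that 3 against 3 libraries allow). A fold change is not given against a group listed at 0.

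The order of the levels differed between the genotypes. In WT hearts the 4 protease genes had the highest means, from 2.94 FPKM for Mcpt4 through 2.55 for Cma1 and 2.33 for Cpa3 to 2.32 for Tpsb2, with neighbours closer than their SDs of 0.462 to 1.03 FPKM. Kit followed at 1.58 ± 0.18 and Hdc at 0.828 ± 0.066 FPKM (SD, n = 3). In KO hearts Kit was first at 1.90 ± 0.42 FPKM, with Mcpt4 next at 1.75 ± 0.93 FPKM and not apart from it beyond the SD. Tpsb2, Cpa3, Cma1 and Hdc then lay between 1.10 and 0.616 FPKM, again with neighbours closer than their SDs.

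Summed over the 4 protease genes, WT replicates 1 to 3 held 12.2, 11.0 and 7.17 FPKM and KO replicates 1 to 3 held 4.08, 6.29 and 3.41 FPKM. WT replicate 3 was the lowest of the WT libraries and KO replicate 2 the highest of the KO libraries. The share of Cma1 in this sum was 25.1%, 28.6% and 20.0% in WT and 13.0%, 20.9% and 13.8% in KO libraries. The share of Mcpt4 was 28.3%, 28.6% and 30.6% in WT and 35.2%, 44.5% and 30.2% in KO libraries. The depth is shared by all genes of a library, so these shares do not depend on the scaling. They rest on few fragments and are imprecise. In KO replicate 3 there were about 4 fragments for Cma1, 6 for Tpsb2 and 8 for Mcpt4. Cpa3 had about 9 in WT replicate 3 and in KO replicate 2.

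Ratios within a library set each tested member against Ptprc, the gene of the pan-leucocyte protein CD45, and against Cma1, in 11 ratios in all. Ptprc itself was at 5.04, 3.35 and 2.59 FPKM across WT against 2.04, 3.17 and 2.05 FPKM across KO libraries (log2 difference -0.48 ± 0.21, limma adjusted p = 0.617). The log2 ratio of Cma1 to Ptprc was -0.46 ± 0.34 in WT and -1.25 ± 0.21 in KO hearts (SD, n = 3 each), a difference of -0.78 with no overlap (exact permutation test, two-sided p = 0.1, the smallest possible here). For Cpa3, Tpsb2 and Mcpt4 the ratio to Ptprc differed by -0.39, -0.36 and -0.18, and the genotypes overlapped (exact permutation p = 0.5, 0.3 and 0.6). The ratio of Kit to Ptprc went the other way, with a difference of 0.68 and no overlap (exact permutation p = 0.1). With 3 against 3 libraries none of these 11 tests can reach 0.05, and no adjusted p is given.

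Against Cma1, the log2 ratio of Mcpt4 was 0.21 ± 0.25 in WT and 0.81 ± 0.14 in KO hearts (SD, n = 3 each), a difference of 0.60 with no overlap (exact permutation p = 0.1, the smallest possible). The ratios of Kit and Hdc to Cma1 differed by 1.46 and 1.00, also with no overlap (exact permutation p = 0.1 each). Those of Tpsb2 and Cpa3 differed by 0.43 and 0.40 and overlapped (exact permutation p = 0.4 each). Each difference in a ratio equals the log2 difference of the member minus that of the gene it is set against. Since Cma1 had the largest fall among the members, ratios to it rise in KO hearts for any gene that fell less. Overlap was not counted for ratios of other genes to Ptprc or Cma1, so no share over all genes stands beside these.

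**Figure D3:**
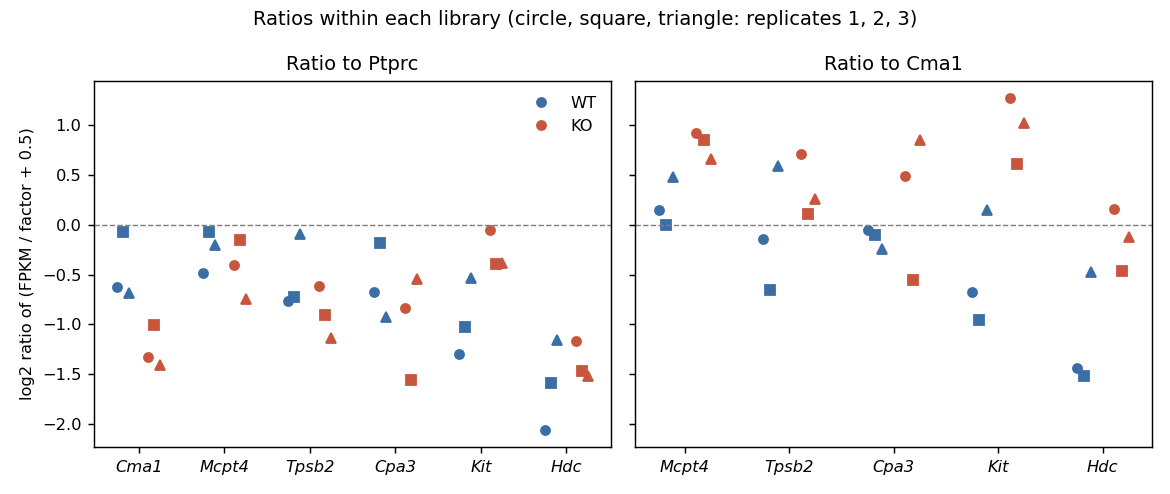
Log2 ratio of each tested member to Ptprc (left) and to Cma1 (right) in each library, on the scale of FPKM / factor + 0.5; points are libraries, WT in blue and KO in red. KO points lie below WT points for Cma1 against Ptprc and above them for Kit against either gene and for Mcpt4 and Hdc against Cma1.

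Cma1 and Mcpt4 lie 118 kb apart, centre to centre, in the cluster of chymase and granzyme genes on chromosome 14. Of 15 such genes within the cluster, 9 were listed at 0 in all 6 libraries, among them Mcpt1 and Mcpt2, the chymase genes of mucosal mast cells, and Cma2 and Mcpt9. The third tested gene of the cluster was Gzmb, which encodes granzyme B of cytotoxic lymphocytes and was at 0.548 ± 0.147 FPKM across WT and 0.372 ± 0.237 FPKM across KO hearts (SD, n = 3 each). Ctsg, the cathepsin G gene, was at 0.927 FPKM in WT replicate 1 and at 0.423 FPKM or less in the other libraries. Aligned with blastn, the transcript of Mcpt4 was 85.3% identical to that of Cma2 over 912 bases and 82.5% identical to that of Mcpt1 over 998 bases, while Cma1 was 68.2% identical to Mcpt4 over 682 bases. Reads from stretches that these genes share could have been assigned to either copy, and the files do not say how such reads were treated.

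**Figure D4:**
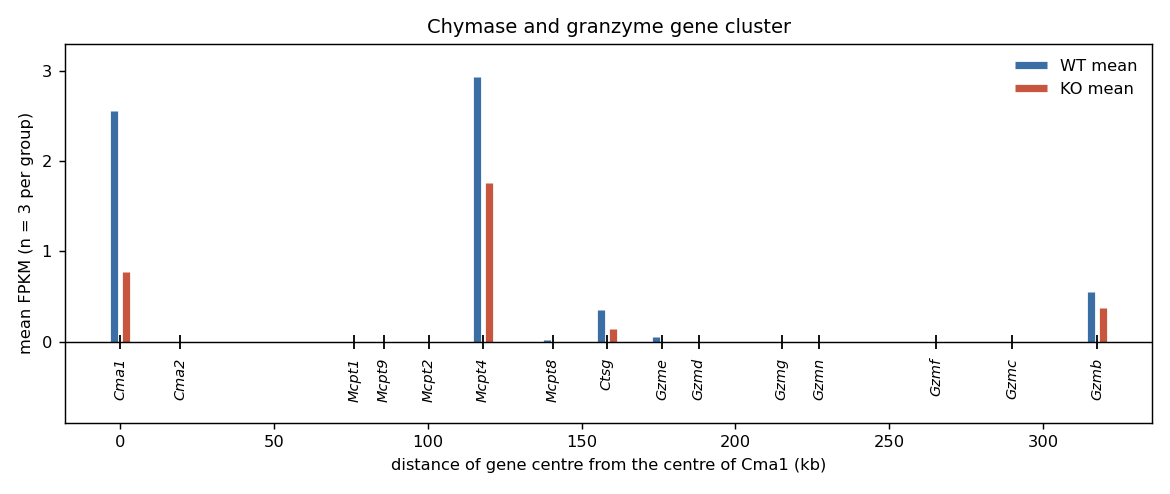
Mean FPKM in WT (blue) and KO (red) hearts, n = 3 each, of the chymase and granzyme genes, placed by distance in kb from the centre of Cma1. Levels above 1 FPKM are seen for Cma1 in WT and for Mcpt4 in both genotypes, while 9 of the 15 genes are at 0.

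Other genes of mast cell biology were taken from lists. Of 10 further granule genes, Srgn (serglycin), Slc18a2 (the vesicular transporter that loads histamine) and Ndst2 (a heparin sulphotransferase) were tested and 0 were called. Srgn, which many leucocytes and endothelial cells make, varied widely, at 35.5, 16.0 and 36.3 FPKM (WT) against 42.0, 5.41 and 16.8 FPKM (KO), library by library. Slc18a2 was at 0.764 ± 0.31 FPKM across WT and 0.949 ± 0.052 FPKM across KO hearts, and Ndst2 at 3.37 ± 0.64 and 3.04 ± 0.41 FPKM (SD, n = 3 each; limma adjusted p = 0.855 and 0.904). Rab27b, which encodes a small GTPase of granule release, was among the untested genes of this list. It was at 0.292, 0.282 and 0.333 FPKM across WT against 0.478, 0.617 and 0.537 FPKM across KO libraries. It was higher in KO with no overlap (exact permutation test, two-sided p = 0.1, the smallest possible). Over all tested genes 12.8% did not overlap in either direction, and the share among untested genes was not counted. Tpsab1, the other granule tryptase gene, was at 0.356 and 0.0855 FPKM in WT replicates 1 and 3 and listed at 0 in the other 4 libraries. Of 10 further receptor genes 5 were tested and 0 called, with a median log2 difference of -0.17. Csf2rb2, a receptor chain gene for interleukin 3 in mice, differed by -0.42, Fcer1g, the gene of the common Fc receptor gamma chain, by -0.17 and Csf2rb, the common beta chain gene, by -0.21 (limma adjusted p = 0.577, 0.849 and 0.882). Of the untested receptor genes, Mrgprb1 had a WT mean of 0.0412 and a KO mean of 0.0872 FPKM, Adora3, an adenosine receptor gene, 0.0838 and 0.109 FPKM, and Ptger3, a prostaglandin E receptor gene, 0.232 and 0.18 FPKM, all with overlap. Mrgprb2, a receptor of connective tissue mast cells in mice, was at 0.102 and 0.0605 FPKM in WT replicates 1 and 2 and listed at 0 in the other 4 libraries.

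All 13 genes of signalling below the IgE receptor were tested and 0 were called; 11 were lower in KO hearts, with a median log2 difference of -0.26 beside -0.004 over all genes tested, of which 50.7% were lower. These genes also act in T cells, B cells and myeloid cells. Lcp2, which encodes the adaptor SLP-76, was at 4.10 ± 0.49 FPKM across WT and 2.38 ± 0.55 FPKM across KO hearts, and Lat, the gene of the linker for activation of T cells, at 0.629 ± 0.093 and 0.188 ± 0.026 FPKM (SD, n = 3 each; limma adjusted p = 0.252 and 0.313). Grap2, the gene of the adaptor GADS, was at 0.984 ± 0.15 and 0.468 ± 0.031 FPKM (SD, n = 3 each; limma adjusted p = 0.345). Of 10 genes for stem cell factor and mast cell transcription factors 9 were tested and 0 called. Gata2, also an endothelial gene, was at 4.43, 3.84 and 4.72 FPKM (WT) against 5.62, 7.04 and 5.34 FPKM (KO), library by library (log2 difference 0.43 ± 0.14, limma adjusted p = 0.398), which was the opposite direction to the protease genes. Lyl1 and Stat5b, both transcription factor genes, differed by -0.30 and -0.11 (limma adjusted p = 0.770 and 0.839).

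Of 8 genes of prostaglandin and leukotriene synthesis, all tested, 4 were lower and 4 higher in KO hearts and 0 were called. Ptgds, one of the genes for prostaglandin D synthase and known in cells other than mast cells, was at 96.2, 74.3 and 112 FPKM (WT) against 45.3, 41.5 and 45.6 FPKM (KO), library by library (log2 difference -1.05 ± 0.19, limma adjusted p = 0.094). Ptgs2, the gene of the inducible cyclooxygenase, went the other way, at 0.907, 0.466 and 0.459 FPKM (WT) against 0.743, 1.82 and 1.29 FPKM (KO), library by library (log2 difference 0.67 ± 0.26, limma adjusted p = 0.522). Hpgds, the haematopoietic synthase that mast cells use, was at 2.44 ± 0.61 and 1.71 ± 0.58 FPKM (SD, n = 3 each; limma adjusted p = 0.685). Of 8 angiotensin system genes 4 were tested and 0 called; Agt, the gene of angiotensinogen, was at 1.95 ± 0.60 FPKM across WT and 1.12 ± 0.27 FPKM across KO hearts (SD, n = 3 each; limma adjusted p = 0.576). Agtr1a, an angiotensin II receptor gene, differed by -0.16 (limma adjusted p = 0.833). Hnmt, which encodes a histamine-degrading enzyme, was the 1 tested gene of 5 for histamine breakdown and histamine receptors (log2 difference 0.27 ± 0.28, limma adjusted p = 0.852). Hrh2, an untested histamine receptor gene, was at 0.571, 0.540 and 0.340 FPKM across WT against 0.239, 0.288 and 0.0973 FPKM across KO libraries. It was lower in KO with no overlap (exact permutation test, two-sided p = 0.1, the smallest possible), as were 7.5% of all tested genes. The untested Aoc1, Hrh1 and Hrh3 overlapped.

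The label of mast cells was set beside markers of related cells. The 4 protease genes, Kit and Hdc were above 0 in all 6 libraries, which is a weak check at these levels. Fcer1a and Ms4a2 were listed at 0 in 4 and 3 libraries. Gata1, from the list of mast cell transcription factors, was listed at 0 in all 6. None of 5 basophil markers was tested; Mcpt8 and Prss34 were each above 0 in 1 library, Il13 was listed at 0 in all, Il4 and Cd200r3 were each above 0 in 5, and the list summed to 0.132 to 0.351 FPKM across WT and 0.0237 to 0.313 FPKM across KO libraries. Of 7 eosinophil markers 1 was tested, the ribonuclease gene Ear2, at 2.90, 1.57 and 2.95 FPKM across WT against 1.37, 1.36 and 0.809 FPKM across KO libraries (log2 difference -0.79 ± 0.25, limma adjusted p = 0.392). The eosinophil list summed to 2.53 to 3.77 FPKM across WT and 0.939 to 2.17 FPKM across KO libraries, with no overlap, as for the summed protease genes. Most of the eosinophil sum was Ear2 in each library. The untested eosinophil markers all overlapped between genotypes. Means of Prg2, Siglecf, Ear6 and Epx were lower in KO hearts. Those of Ccr3 (WT 0.0235, KO 0.0421 FPKM) and Il5ra (WT 0.0440, KO 0.138 FPKM) were higher. Of 8 pan-leucocyte markers 7 were lower in KO hearts and 0 called (median log2 difference -0.46); their sums, 121 to 166 FPKM across WT and 102 to 151 FPKM across KO libraries, overlapped. All 5 tested dendritic cell markers of 7 were lower and 0 called, with sums of 8.08 to 12.0 FPKM across WT and 6.73 to 7.78 FPKM across KO libraries. Of 8 mesothelial markers of the epicardium, where mast cells also lie, 7 were tested, 5 of them higher in KO hearts and 0 called. All 5 blood markers were lower and 0 called (median log2 difference -0.56), with overlapping sums. All 8 cardiomyocyte markers, the 3 tested of 7 adipocyte markers and the 1 tested of 7 lung and thymus markers were lower, 6 of 7 fibroblast markers and 5 of 6 endothelial markers were higher, and 0 were called. The part of these cells in the protease gene levels was not tested.

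The genes outside the members whose pattern over the 6 libraries was most like that of Cma1 were ranked. Likeness was the root mean square difference of centred log2 values, ranked over 12084 protein-coding genes. The 5 nearest were H2-Aa, a class II antigen presentation gene (0.191), the chemokine receptor gene Ccr2 (0.244), the chemokine gene Ccl8 (0.251), the immune adaptor gene Scimp (0.264) and Spn, which encodes the leucocyte surface protein sialophorin (0.265). Among the members Mcpt4 was nearest to Cma1, at 0.343 with 28 ranked genes nearer, followed by Tpsb2 at 0.458 with 126 nearer and Cpa3 at 0.469 with 145 nearer. Kit, at 0.826, had 9038 genes nearer to Cma1. This order is a description over 6 libraries, which give all genes the same depth and genotype contrast.

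Leaving out single libraries moved the size of the differences but not their direction in the 6 tested members. The log2 difference of Cma1 ran from -1.53 to -1.10 and that of Tpsb2 from -0.96 to -0.63. That of Cpa3 ran from -1.19 to -0.69, and that of Mcpt4 from -0.93 without KO replicate 2 to -0.43 without KO replicate 3. In the 5 libraries without KO replicate 3, Cma1 differed by -1.11, Cpa3 by -1.01 and Tpsb2 by -0.63 (limma adjusted p = 0.403, 0.438 and 0.383). None of the 8 members was called in any of these 6 fits.

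**Figure D5:**
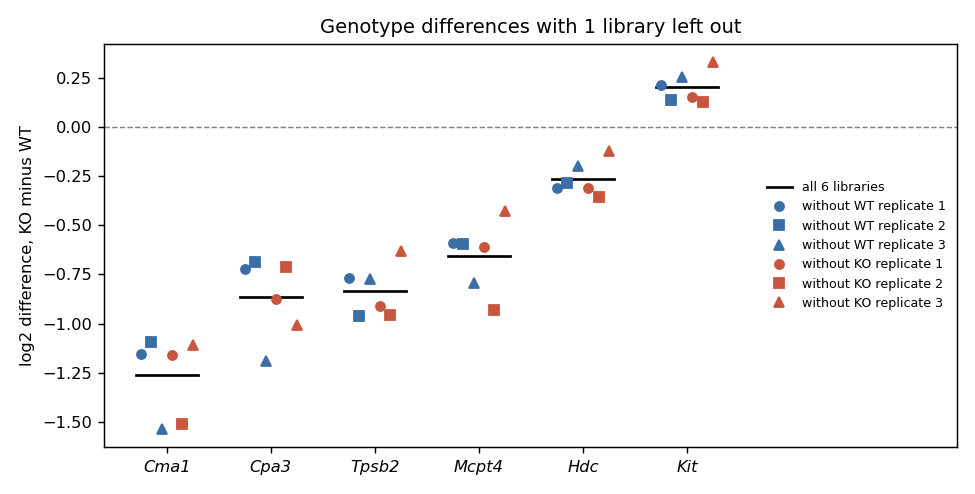
Log2 difference, KO minus WT (vertical axis, log2 scale), of the 6 tested members with each library left out in turn; the black line is the value from all 6 libraries. The points of the 4 protease genes and of Hdc stay below 0 and those of Kit above 0.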

How the data were processed

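Hearts of 6 mice, 3 WT and 3 KO by their titles, gave 1 library each. The values the authors deposited are FPKM, although the table is titled as counts: 37.2% to 40.4% of a library's values have decimals. Per the submitters' processing notes Bowtie 0.12.2 and the builds mm8 and mm9 were used in roles that are not given; the quantifier, annotation and strand use were not given in the sources used here. Of 52550 rows 52403 matched GENCODE M21 (GRCm38), which gave symbols and coordinates; no coordinate was converted. All columns were used.

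The most frequent product of FPKM and length in genes with 1 transcript was taken as the worth of 1 fragment. Only 29.0% to 29.9% of values below 5 fragments were whole within 0.02 fragments, so counts were not recovered and no counting interval is given. Fragment numbers of members use the longest transcript and are approximate.

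The 14656 genes reaching an FPKM of 0.5 in 3 or more libraries were fitted with limma 3.58.1 in R 4.3.3 on log2(FPKM / factor + 0.5), with genotype as the only term, a mean-variance trend and Benjamini-Hochberg adjustment over all tested genes. Factors were trimmed means of log2 ratios (trims 0.3 and 0.05; 0.949 to 1.07). Such log2 differences understate changes of low genes. Ratios and untested genes were compared by exact permutation, two-sided. Transcripts were aligned with blastn 2.17.0. The code was tested on simulated data. The labels do not say that the mice came from separate litters or sessions, so the p-values cover only the spread among these libraries, which may be technical in part.

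The members and the 20 other gene lists were chosen with earlier results of these data known. The rule for named genes took all members, the called genes and the 3 genes of smallest p in each other list, and the 5 genes most like Cma1; it was followed for the lists of mast cell biology, except 1 gene that is not reported here, while marker lists are given mostly as counts, a departure from the rule. Genes named outside it were chosen after their values were seen. From the lists of mast cell biology they were Kitl, Gata1, Tpsab1, Rab27b, Mrgprb1, Mrgprb2, Adora3, Ptger3 and the untested histamine genes. The others were untested melanocyte genes, basophil genes, untested eosinophil genes, Ptprc, Xist, Ddx3y and genes of the chymase cluster. Alternatives were 4 other scalings, 2 filters, 2 pseudocounts, 2 variance models, a replicate block and each library left out.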

Additional observations from a re-analysis of the deposited data

How the results depend on the processing

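None of the 8 members was called under any of 17 alternatives, against 0 with all 6 libraries and the settings used, and the 6 tested members kept their direction in each alternative that tested them; Hdc was not tested with the filter at an FPKM of 1. The lowest limma adjusted p of Cma1 over the alternatives was 0.106 (replicate block) and the highest 0.632, with log2 differences from -1.64 (pseudocount 0.1) to -0.99. Members lower in KO hearts numbered 7 in the settings used and 6 to 7 when 1 library was left out, where the untested Fcer1a ran from -0.12 to 0.10. Over all genes 55 were called, 20 without a filter and 12 to 36 when 1 library was left out. The untested Ms4a2 differed by -0.14, and by -0.58 and -0.07 with pseudocounts of 0.1 and 1. With the replicate number as a block, 42 genes were called. Whether the numbers pair the samples cannot be decided with 3 libraries per group. Deviations of same-numbered libraries correlated at 0.0076, -0.036 and 0.18 across genes. The highest correlation, 0.19, was between WT replicate 1 and KO replicate 2. Depth limits what can be said of Fcer1a and Ms4a2, which did not pass the filter on low values.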
